A study of Mus musculus with 12 samples.

Results

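The astrocyte genes described here were 8 genes that are known to be switched on in reactive astrocytes (Gfap, Vim, Serpina3n, Timp1, Osmr, Lcn2, Cd44, and S100a6) and 2 genes of the resting cell (Aqp4 and Slc1a2). They were found on the arrays through the transcript accession of each probe, which gave 18 probes for all 10 genes, among 20882 genes measured and 17948 genes well above background on at least 1 array. RNA was measured on 12 one-color mouse arrays, 1 for each animal model of Alzheimer's disease (AD) or aging, and the RNA on an array came from a pool of 3 animals. The aged set was the prefrontal cortex of untreated C57BL/6 mice at 1.5, 4, 17, and 22 months. The transgenic set was the hippocampus of mice labeled C57BL/6 that carried mutated human NCSTN (10 months), wild-type human MAPT (12 months), or the mutated human transgenes of 5×FAD (6 months), and the promoters of these transgenes are not given in the sources used here. The injected set was the hippocampus of ICR mice, 7 weeks old, taken 14 days after an injection into the cerebral ventricles of Aβ at 5 μM or 10 μM, or of streptozotocin at 2.5 mg/kg or 3 mg/kg, or 30 min after intraperitoneal scopolamine at 1 mg/kg. Untreated or nontransgenic hippocampus arrays were not analysed here, and every level was therefore compared with the average of the remaining arrays in the same set (its ratio below), a gene being called when it differed at least 2-fold. With 1 array per model these differences have no replicate check and no p-value.

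Astrocytes clear glutamate, buffer potassium and water, and cover blood vessels with their endfeet. After injury, around amyloid plaques, and in inflammation they become reactive: they thicken their intermediate filaments and secrete acute-phase and protease-inhibiting proteins, partly through cytokine receptors of the gp130 family and the transcription factor STAT3. Genes of the resting cell need not move with this program, which is why Aqp4, the water channel of the endfeet, and Slc1a2, the main glutamate transporter of the forebrain, were set beside it.

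The reactive members are spread over the genome. In GRCm38.p6 coordinates, Gfap lies at chr11:102887336-102897200, Vim at chr2:13574311-13582826, Timp1 at chrX:20870166-20874737, and Lcn2 at chr2:32384637-32387739. Slc1a2 and Cd44 are neighbors on chromosome 2, with 20356 bases between their annotated ends. The 250 bases before the transcript start given in the RefSeq promoter table were read for the 9 members with an entry, and 4 are shown because the results below turn on these genes: both filament genes, the inhibitor Timp1, and Lcn2, which followed a pattern of its own. Each is written 5′ to 3′ on the strand of the gene, and capitals mark letters that match the C/EBP pattern.
Gfap, chr11:102897201-102897450, minus strand: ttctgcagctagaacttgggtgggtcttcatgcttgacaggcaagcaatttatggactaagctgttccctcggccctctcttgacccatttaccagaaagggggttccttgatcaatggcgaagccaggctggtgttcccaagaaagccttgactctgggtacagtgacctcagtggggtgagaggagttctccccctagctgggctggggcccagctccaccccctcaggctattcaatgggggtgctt
Vim, chr2:13574061-13574310, plus strand: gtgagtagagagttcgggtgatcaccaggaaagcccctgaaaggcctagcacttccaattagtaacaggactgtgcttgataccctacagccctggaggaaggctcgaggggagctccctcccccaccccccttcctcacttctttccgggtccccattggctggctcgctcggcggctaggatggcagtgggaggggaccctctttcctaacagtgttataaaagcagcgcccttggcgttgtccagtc
Timp1, chrX:20869916-20870165, plus strand: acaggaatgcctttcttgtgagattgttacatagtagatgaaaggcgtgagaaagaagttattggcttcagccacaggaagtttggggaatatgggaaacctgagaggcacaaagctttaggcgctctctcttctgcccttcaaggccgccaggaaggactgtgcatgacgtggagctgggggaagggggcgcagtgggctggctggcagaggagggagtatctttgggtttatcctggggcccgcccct
Lcn2, chr2:32387740-32387989, minus strand: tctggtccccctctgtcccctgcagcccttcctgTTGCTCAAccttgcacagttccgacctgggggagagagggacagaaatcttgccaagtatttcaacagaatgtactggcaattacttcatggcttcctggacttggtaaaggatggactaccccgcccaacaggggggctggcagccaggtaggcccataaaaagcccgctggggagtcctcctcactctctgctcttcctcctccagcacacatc
All 4 windows end just before the annotated gene and hold no exon of it. Those of Slc1a2 and Osmr lie inside the annotated gene and those of Serpina3n and Cd44 overlap it, since the table starts these genes further downstream. On both strands, the STAT letters TTCNNNGAA occurred in 0 of the 9 promoters, against 7.02% of 32851 promoters in the table, and the AP-1 letters TGANTCA in 0 of 9, against 6.75%. The C/EBP letters TTGCNNAA occurred in 2 of 9, those of Lcn2 (216 to 209 bases before the start) and Slc1a2 (158 to 151 bases before the start in the table), against 9.56%. The NF-κB pattern, with 5 fixed and 5 free letters, occurred in 7 of 9 and in 45.8% of all promoters. These patterns do not overlap each other in the Lcn2 or Slc1a2 window, and a match of letters is not a binding site.

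The arrays were of similar quality. Each held 43020 spots, of which 110 to 234 were left out as outliers and 0 were saturated, and between 63.5% and 75.8% of probes were well above background. The 5×FAD array had the highest share, 75.8%, against 69.7% in NCSTN and 72.3% in MAPT, and the fewest outliers. All 8 reactive genes and both resting genes were well above background on every array, with the exception of Timp1 on the streptozotocin 2.5 mg/kg array. A list of 23 other resting astrocyte genes was well above background on all 12 arrays, and its summed intensity lay between 458598 and 549377. The methods describe male mice, but Xist, which is expressed from the inactive X chromosome, was well above background on 3 of 3 transgenic arrays (log2 intensity 9.19 to 9.59) and on 0 of the 9 others, whereas the Y-linked Ddx3y was well above background on 9 of 9 others and on 0 of 3 transgenic arrays. Comparisons within a set are between arrays that share this state. Hippocampal marker genes did not fully separate the regions, with summed intensities of 5675 to 12623 on cortex arrays and 11787 to 30061 on hippocampus arrays. The 8 choroid plexus genes were all at least 2-fold higher on the 17-month, both Aβ, and the scopolamine arrays (beside 1.88% to 4.2% of all genes). They were all at least 2-fold lower on both streptozotocin arrays (beside 2.93% and 5.33%). In whole tissue, fewer cells of a type and less RNA per cell cannot be told apart.

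In the transgenic hippocampus, the reactive genes were highest in 5×FAD. Of the 8 genes, 7 were at least 2-fold higher on the 5×FAD array than the mean of NCSTN and MAPT, beside 7.04% of all 17204 genes tested, and the eighth, Cd44, was 1.67-fold higher. The median of the 8 log2 ratios was 1.79, beside -0.05 over all genes. All 8 were higher in 5×FAD than in each of the other models.

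**Figure D1:**
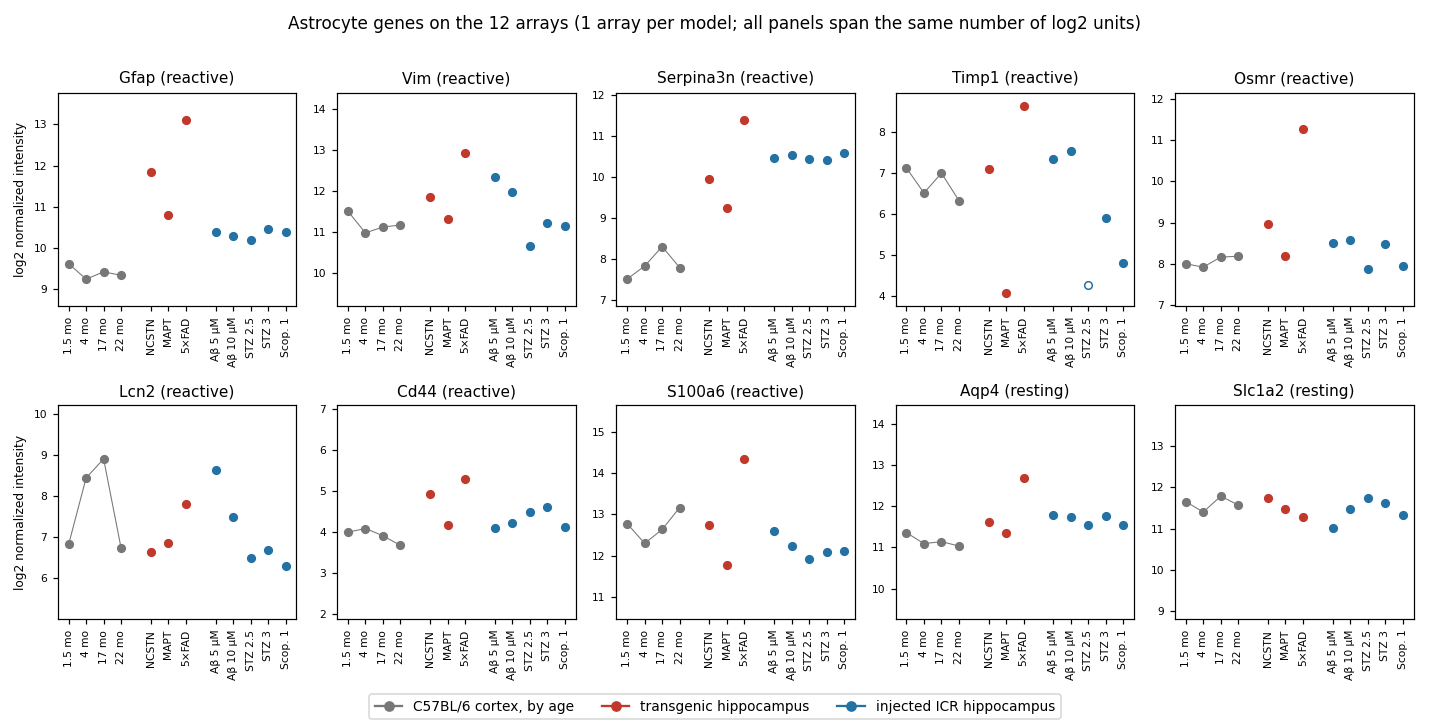
Log2 normalized intensity (vertical axis) of the 8 reactive and 2 resting genes on the 12 arrays (horizontal axis: ages in months, transgenes, and injected agents, with streptozotocin, STZ, and scopolamine, Scop., in mg/kg); each point is 1 array, an open point is not well above background, a line joins the cortex ages, and every panel spans the same log2 width. The 5×FAD point is the highest of the transgenic set in all panels but Slc1a2, and Gfap and Serpina3n are flat over the injected mice.

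Gfap, the main intermediate filament of astrocytes, had a log2 intensity of 11.84 in NCSTN, 10.81 in MAPT, and 13.12 in 5×FAD. 5×FAD was 3.47-fold above the mean of the other two, and all 3 Gfap probes gave this direction, with log2 ratios of 1.42, 1.58, and 2.39. Vim, the filament that partners Gfap in reactive cells, was at 11.85, 11.32, and 12.92 and was 2.53-fold higher in 5×FAD. A list of partners held 4 filament and linker genes (Nes, Synm, Des, and the linker Plec). On this array 0 of 4 reached 2-fold, beside 7.04% of all genes higher and 5.27% lower. A count of 0 among 4 genes does not set them apart from all genes.

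Among secreted proteins, Serpina3n, a serine protease inhibitor of the acute phase, was at 9.94 in NCSTN, 9.25 in MAPT, and 11.39 in 5×FAD, or 3.46-fold higher in 5×FAD. It belongs to a cluster of close paralogs, and signal from them on its single probe was not tested. Timp1, an inhibitor of matrix metalloproteinases, was at 7.09, 4.07, and 8.63. It was 8.28-fold higher in 5×FAD, a log2 ratio of 3.05 that was 1.74 with another background correction (normexp). It rested on the MAPT array as well as on 5×FAD, since against NCSTN alone the log2 difference was 1.54. The metalloproteinase genes on a list for the TIMP family did not move together. Mmp2 was higher (log2 ratio 1.66) and Mmp14 lower (-1.27), though neither reached 2-fold with normexp (0.95 and -0.62). Lcn2, a siderophore-binding protein released by reactive astrocytes and by granulocytes, was at 6.64, 6.86, and 7.81, which was 2.09-fold higher in 5×FAD and fell short of 2-fold against MAPT alone (0.96) and with normexp (0.76).

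Among receptors and calcium-binding proteins, Osmr, the oncostatin M receptor of the gp130 family, was at 8.97, 8.19, and 11.27, or 6.46-fold higher in 5×FAD. S100a6, a calcium-binding protein of immature and reactive astrocytes, was at 12.73, 11.76, and 14.35, or 4.30-fold higher. Cd44, the receptor for hyaluronan, was at 4.93, 4.17, and 5.29 as the mean of 4 probes, of which 2 or 3 were well above background on each of these arrays. Its probes ranged from -0.31 to 1.94 in log2 ratio, and the brightest gave 0.60.

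The resting genes did not share a direction. Aqp4 was at 11.62 in NCSTN, 11.36 in MAPT, and 12.68 in 5×FAD, 2.28-fold higher in 5×FAD, and its 2 probes gave log2 ratios of 0.81 and 1.58. Slc1a2 was at 11.75, 11.47, and 11.29, the lowest value in 5×FAD, with a log2 ratio of -0.32. Of its 3 probes, 2 gave -0.62 and -0.63 and the third gave 0.28. The median of the reactive genes exceeded the mean of the 2 resting genes by 1.36 log2 units.

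**Figure D2:**
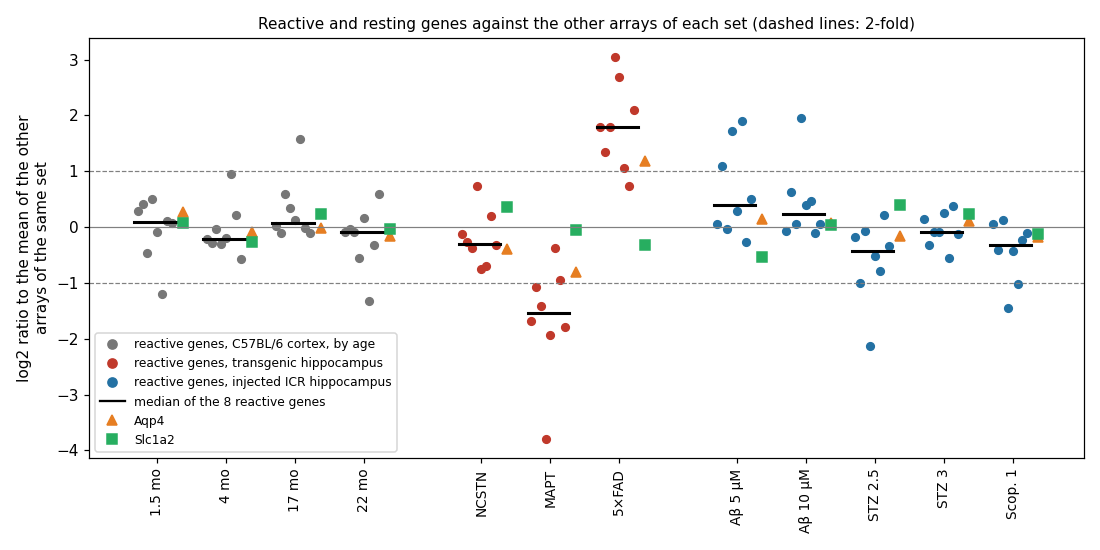
Log2 ratio of each gene to the average of the remaining arrays in its set (vertical axis) for the 12 arrays (horizontal axis); circles are the 8 reactive genes, black bars their median, the triangle is Aqp4, the square Slc1a2, and dashed lines mark 2-fold. The 5×FAD median is 1.79 and the MAPT median -1.54, whereas the medians of the 10 other arrays lie between -0.42 and 0.40.

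Other lists of genes were read on the 5×FAD array, where 7.04% of all genes were at least 2-fold higher and 5.27% at least 2-fold lower. Of 5 further genes that rise in many kinds of reactive astrocyte, 3 were at least 2-fold higher, with log2 ratios of 3.73 for Aspg, 2.55 for the chemokine Cxcl10, and 1.43 for the sphingosine receptor S1pr3. Genes named A1, after inflammation, were at least 2-fold higher in 5 of 11, led by the complement inhibitor Serping1 (2.07), the proteoglycan Srgn (1.58), and the immunoproteasome subunit Psmb8 (1.31), and Ggta1, below background in NCSTN and MAPT, was at least 1.53-fold higher. Genes named A2, after ischemia, were at least 2-fold higher in 4 of 12, led by the transglutaminase Tgm1, the lipopolysaccharide co-receptor Cd14 (2.54), and the pentraxin Ptx3. Tgm1 and Ptx3 were not well above background in NCSTN or MAPT, which gave at least 8.73-fold and at least 2.96-fold. With normexp Ptx3 was at 0.41. In both lists 0 genes were at least 2-fold lower.

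The pathway of Osmr was only partly higher. Of 15 genes of the oncostatin M and STAT3 pathway, 4 were at least 2-fold higher (beside 7.04% of all genes) and 2 at least 2-fold lower (beside 5.27%). The feedback inhibitor Socs3 (1.94) and the ligand Cntf (1.79) were higher, and Il6 was at least 2.87-fold higher, being below background on the other arrays. The ligand Lif, well above background only in MAPT, was at least 2.62-fold lower, and the receptor Cntfr was lower by a log2 ratio of -1.11. With normexp Il6 (0.39) and Lif (-0.20) were not called.

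Resting astrocyte genes as a group stayed near the other transgenic arrays. Of 23 further genes, 0 were at least 2-fold higher or lower in 5×FAD, beside 7.04% and 5.27% of all genes, and their log2 ratios ran from -0.46 (Ppp1r3c and Slc6a11) to 0.86 (S100b) with a median of 0.23. Aqp4, at 1.19, lay above all 23. Of the 5 genes that anchor Aqp4 to the endfoot membrane, 0 were called on any of the 12 arrays. Per array, 1.33% to 7.04% of all genes were called higher and 1.54% to 5.33% lower. Of 5 other genes of the Slc1 family, only Slc1a5 was called on 5×FAD (1.24, and 0.66 with normexp). The glutamate transporters Slc1a1 (-0.14), Slc1a3 (0.44), and Slc1a6 (0.01) were not called there.

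**Figure D3:**
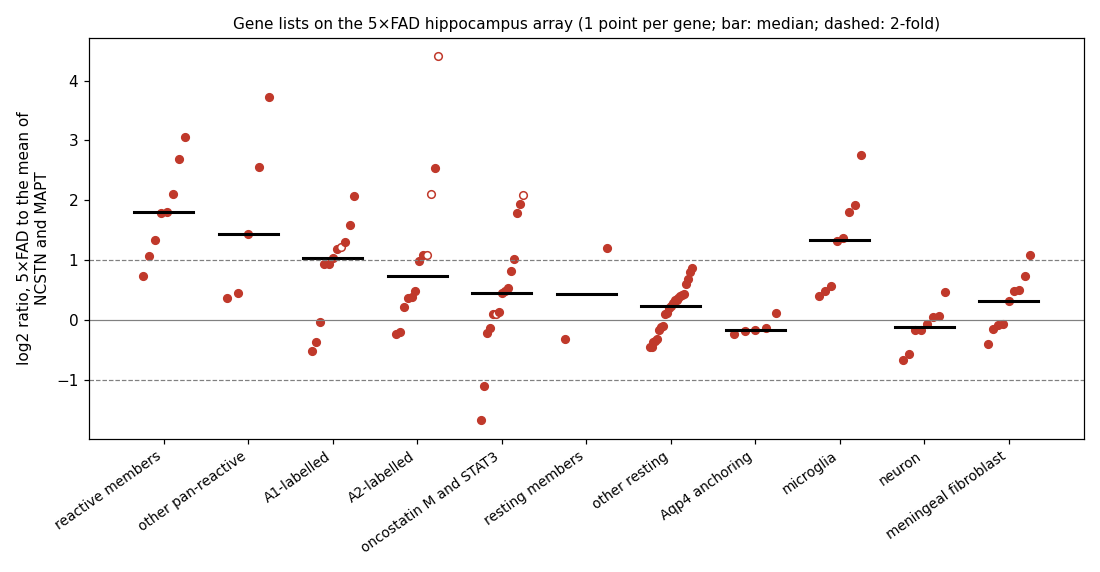
Log2 ratio of the 5×FAD array to the mean of NCSTN and MAPT (vertical axis) for the genes of 11 lists (horizontal axis); each point is a gene, an open point has both other arrays below background, bars are medians, and dashed lines mark 2-fold. The medians are 1.79 for the reactive members, 0.23 for other resting astrocyte genes, and 1.34 for microglia.

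Microglial genes were also higher on the same array. Of 8 microglia markers, 5 were at least 2-fold higher in 5×FAD, beside 7.04% of all genes. Log2 ratios were 2.75 for Tyrobp, 1.92 for Cx3cr1, and 1.37 for Aif1. The summed intensity of the 8 markers was 88773 against 24690 in NCSTN and 23881 in MAPT. The part of these cells in the values of the reactive genes was not tested. Of the genes of meningeal fibroblasts, cells that also make Vim and Timp1, 1 of 9 was called. Their sum was 29306 in 5×FAD, 25162 in NCSTN, and 27114 in MAPT. Dcn was the brightest of them, with its highest value in MAPT (14.28). Col1a1, Col1a2, Lum, Slc6a13, and Slc13a4 were highest in 5×FAD and lowest in MAPT, with 5×FAD log2 ratios of 0.31 to 1.08. Dcn, Igf2, Slc22a6, and Ogn did not follow this order (-0.41 to -0.07). The part of meninges in the reactive gene values was not tested. Of 8 neuronal genes, 0 were called, beside 7.04% of all genes higher and 5.27% lower.

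NCSTN and MAPT also differed from each other. Timp1 was 3.02 and Gfap 1.03 log2 units higher in NCSTN, and these 2 of 8 were at least 2-fold higher, beside 2.15% of 16490 genes. S100a6 (0.97), Osmr (0.79), Cd44 (0.76), Serpina3n (0.69), and Vim (0.53) were nearer, and Lcn2 was -0.21, with 0 of 8 at least 2-fold lower, beside 1.84%. Aqp4 (0.27) and Slc1a2 (0.28) differed little. Against the mean of both other arrays, 6 of 8 reactive genes were at least 2-fold lower in MAPT, beside 3.39% of all genes, but without the 5×FAD array in that mean the count was 2, and in NCSTN 0 were called higher (beside 2.53%) or lower (beside 2.7%). The 3 models differed in age as well as transgene, which cannot be told apart here.

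In injected ICR mice, Gfap and Serpina3n did not separate the agents. Gfap was at 10.38 and 10.27 after 5 and 10 μM Aβ, 10.19 and 10.46 after 2.5 and 3 mg/kg streptozotocin, and 10.38 after scopolamine, a range of 0.26 log2 units. Serpina3n was at 10.46, 10.54, 10.43, 10.42, and 10.58 in the same order, a range of 0.16. Only 12.85% of the genes measured in this set had a range below that of Serpina3n, and the median range was 0.38. Aqp4 had a range of 0.25, between 11.55 and 11.80. The scopolamine mice had received no injection into the brain and were taken 30 min after the agent, yet their Gfap and Serpina3n lay among or next to those of the other 4 arrays.

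Timp1 and Vim, in contrast, were high after Aβ. Timp1 was at 7.34 and 7.52 after 5 and 10 μM Aβ, 4.26 and 5.90 after 2.5 and 3 mg/kg streptozotocin, and 4.80 after scopolamine. Both Aβ arrays lay above the 3 others, and the streptozotocin 2.5 mg/kg value was not well above background, at least 3.53-fold below the mean of the others. Vim was at 12.35 and 11.97 after Aβ, 10.67 and 11.22 after streptozotocin, and 11.15 after scopolamine. It showed the same split, with log2 ratios of 1.09 and 0.63 for 5 and 10 μM Aβ, and was just short of 2-fold lower after 2.5 mg/kg streptozotocin.

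On the Aβ and streptozotocin 2.5 mg/kg arrays, genes of meningeal fibroblasts moved with them. All 9 were at least 2-fold higher on the 5 μM array (beside 4.2% of all genes) and 8 of 9 on the 10 μM array (beside 3.35%). All 9 were at least 2-fold lower on the streptozotocin 2.5 mg/kg array (beside 5.33%). Their summed intensity was 71752 and 51886 after Aβ, 6474 and 23266 after streptozotocin, and 25486 after scopolamine. After scopolamine they split. Col1a1 (-1.34), Slc6a13 (-1.24), and Slc22a6 (-1.48) were at least 2-fold lower, and Col1a2, Lum, and Ogn were lower by less. Slc13a4 (0.51), Igf2 (0.34), and Dcn (0.09) were slightly higher. The collagen genes Col1a1 and Col1a2 had log2 ratios of 1.76 and 2.02 after 5 μM Aβ and of -1.80 and -2.20 after 2.5 mg/kg streptozotocin. The choroid plexus genes were summed at 189262 and 201284 after Aβ, 3447 and 5645 after streptozotocin, and 191542 after scopolamine. The part of meninges and choroid plexus in the Timp1 and Vim values was not tested. Microglial genes were summed at 20143 to 28964, with 0 of 8 called on any ICR array. On those arrays 1.33% to 4.2% of all genes were called higher and 1.54% to 5.33% lower.

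**Figure D4:**
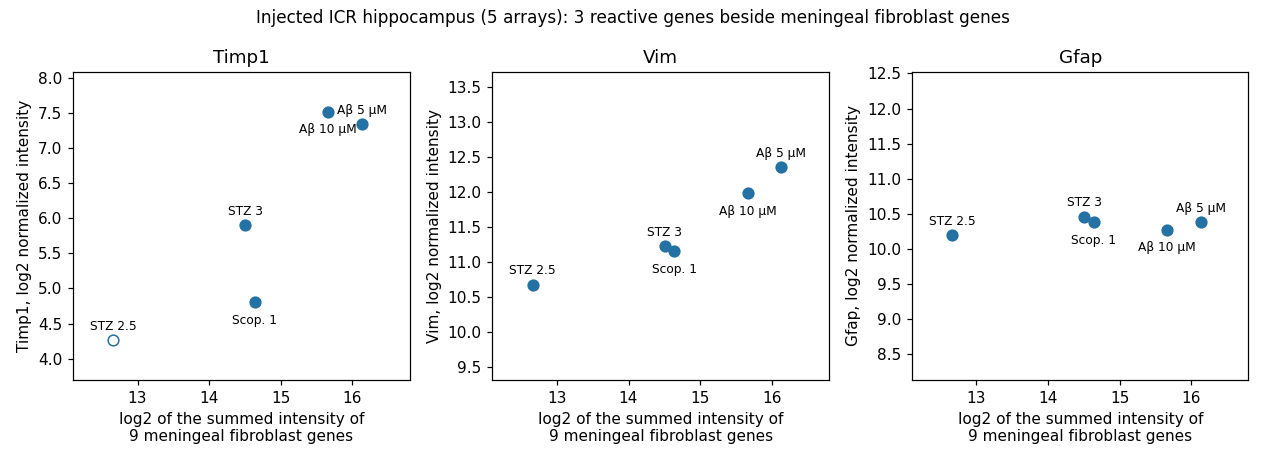
Log2 normalized intensity of Timp1, Vim, and Gfap (vertical axes, equal widths) against log2 of the summed intensity of 9 meningeal fibroblast genes (horizontal axes) on the 5 ICR arrays, 1 point each; STZ is streptozotocin and Scop. scopolamine, in mg/kg, and the open point is not well above background. The Aβ arrays are at the upper right for Timp1 and Vim, the streptozotocin 2.5 mg/kg array at the lower left, and Gfap varies by 0.26.

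After 5 μM Aβ, 3 of 8 reactive genes were at least 2-fold higher (Lcn2 1.89, Timp1 1.72, and Vim 1.09), beside 4.2% of 16224 genes, and without the streptozotocin 2.5 mg/kg array in the mean Vim was at 0.90 and the count was 2, as it was with normexp, where Timp1 was at 0.83. After 10 μM Aβ only Timp1 (1.95, and just under 2-fold with normexp) was called, beside 3.35% of genes higher and 1.84% lower. On the streptozotocin 2.5 mg/kg array Timp1 alone was at least 2-fold lower, beside 5.33%, and it was under 2-fold with normexp (-0.91) and in the deposited matrix (-0.95). On the streptozotocin 3 mg/kg array 0 were called, beside 1.33% higher and 2.93% lower. On the scopolamine array Timp1 (-1.46) and Lcn2 (-1.02) were lower, beside 2.08%, and 0 were higher, beside 2.98%, but with normexp they were at -0.73 and -0.67. The remaining members were closer together: Osmr lay between 7.86 and 8.59, S100a6 between 11.93 and 12.60, and Cd44 between 4.10 and 4.62. Slc1a2 was lowest after 5 μM Aβ, at 11.01, where the other 4 arrays lay between 11.33 and 11.75. Since the doses of each agent differ, the arrays of a pair are given side by side and were not compared.

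Some other genes of the lists differed between these arrays although Gfap did not reach 2-fold. On the 5 μM Aβ array, Cp (1.76), Serping1 (1.48), H2-D1 (1.23), and Sphk1 (2.01) were at least 2-fold higher, and on the streptozotocin 2.5 mg/kg array Cp (-1.83), Serping1 (-1.58), H2-D1 (-1.08), and Sphk1 (-2.56) were at least 2-fold lower. They were named because they were called, beside 4.2% of all genes higher on the first array and 5.33% lower on the second. Other genes of the lists were not called on either, such as H2-T23 (0.52 and -0.40). With normexp Cp was at 0.91 and -0.87 and H2-D1 at 1.19 and -0.99 on these arrays. Of the filament partners, Des, a muscle and pericyte filament, was higher on both Aβ arrays (1.13 and 1.78), but not with normexp (0.26 and 0.55). Of the 23 other resting astrocyte genes, 0 were called on any ICR array, beside 1.33% to 4.2% of all genes higher and 1.54% to 5.33% lower.

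Lcn2 had a pattern of its own. In the aged cortex it was at 6.83 at 1.5 months, 8.45 at 4 months, 8.91 at 17 months, and 6.74 at 22 months. Both middle ages were high and both outer ages low, with a range of 2.17 log2 units that exceeded the range of 96.69% of genes. In the injected set it was at 8.65 and 7.50 after 5 and 10 μM Aβ, 6.51 and 6.68 after streptozotocin, and 6.32 after scopolamine. In log2 ratio it was -1.20, 0.96, 1.57, and -1.32 over the 4 ages, and without the 17-month array the ratios at 1.5 and 22 months were -0.76 and -0.90, and with normexp they were -0.88 and -0.94. Of the 8 reactive genes Lcn2 alone was called in the cortex, higher at 17 months (beside 1.88% of 16086 genes) and lower at 1.5 and 22 months (beside 2.49% and 1.6%).

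The granulocyte genes S100a8 and S100a9 followed Lcn2 in the cortex but not in the transgenic set. In the cortex S100a8 had log2 ratios of -2.40, 2.15, 1.77, and -1.52 and S100a9 of -2.38, 2.03, 2.16, and -1.81 at 1.5, 4, 17, and 22 months. After 5 μM Aβ they were at 1.57 and 1.53. On the 5×FAD array they were lower (-1.52 and -2.58), where Lcn2 was higher (1.06), and on the scopolamine array they were higher (0.93 and 1.05), where Lcn2 was lower. The part of blood granulocytes in the Lcn2 values was not tested. Of 4 red blood cell genes, 1 was called on the 5×FAD array (Hbb-bs, 1.03) and 0 on the other 11. Per array, 1.33% to 7.04% of all genes were called higher and 1.54% to 5.33% lower.

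**Figure D5:**
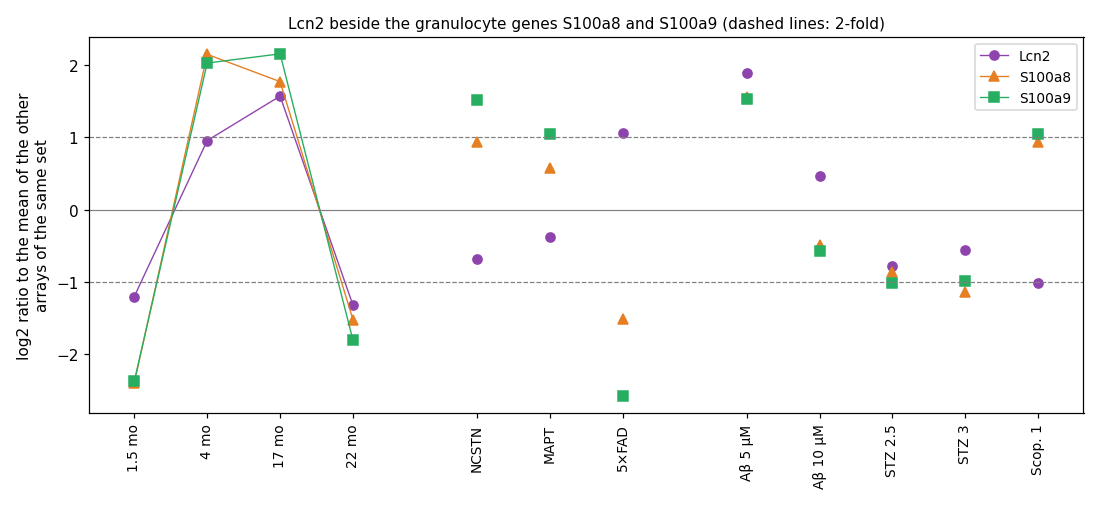
Log2 ratio to the average of the remaining arrays in the set (vertical axis) for Lcn2, S100a8, and S100a9 on the 12 arrays (horizontal axis), with 1 point per array, lines joining the cortex ages, and dashed lines at 2-fold; STZ is streptozotocin and Scop. scopolamine, in mg/kg. The 3 genes share signs at all 4 ages and differ in sign on every transgenic array.

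In the aged cortex, the reactive genes had their highest values at different ages. Gfap was at 9.61, 9.23, 9.41, and 9.33 at 1.5, 4, 17, and 22 months, with its highest value in the youngest mice. Serpina3n was at 7.51, 7.83, 8.30, and 7.79, with its highest value at 17 months. S100a6 was at 12.78, 12.29, 12.64, and 13.17, with its highest value at 22 months. Vim lay between 10.98 and 11.51, Timp1 between 6.32 and 7.12, Osmr between 7.92 and 8.18, Cd44 between 3.68 and 4.09, Aqp4 between 11.03 and 11.36, and Slc1a2 between 11.40 and 11.79.

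A limma model of log2 intensity on log2 age over the 4 arrays tested this set, the only one with an ordered variable. It called 0 of 16086 genes at an adjusted p below 0.05 (0.0%), while 963 genes (5.99%) had an unadjusted p below 0.05, and of the 10 members 0 passed either threshold. From 1.5 to 22 months the fitted change was 0.49 ± 0.29 (SE) for Serpina3n (limma adjusted p = 0.933), -0.17 ± 0.21 for Gfap (0.947), 0.50 ± 1.13 for Lcn2 (0.967), -0.24 ± 0.18 for Aqp4 (0.933), and 0.09 ± 0.22 for Slc1a2 (0.968). Without the 22-month array the unadjusted limma p of Serpina3n was 0.0213 and that of Lcn2 was 0.0317, and both adjusted p were 0.628. With 4 arrays the model has 2 residual degrees of freedom, and in simulated data it called 0% of genes changed by 1 or 2 log2 units. The 0 calls therefore do not show that a trend was absent.

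Between regions, 3 of the 10 genes had all 8 hippocampus arrays above all 4 cortex arrays, beside 8.75% of 17934 genes. Serpina3n lay between 7.51 and 8.30 in the cortex and between 9.25 and 11.39 in the hippocampus, Gfap between 9.23 and 9.61 and between 10.19 and 13.12. Cd44 was separated by 0.02 log2 units. Aqp4 was just short of this, with a lowest hippocampus value equal to the highest cortex value to 2 decimals (11.36), and none of the 10 was lower in all hippocampus arrays, beside 9.99%. Region, strain, age, sex-linked expression, and model all differ between these sets and cannot be told apart. Within the hippocampus, Serpina3n was higher on all 5 ICR arrays (10.42 to 10.58) than in NCSTN (9.94) and MAPT (9.25), while Gfap was lower on all 5 (10.19 to 10.46) than in MAPT (10.81).

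The members varied together to different degrees once the mean of each set was subtracted. Over the 12 arrays Pearson's r with Gfap was 0.94 for Aqp4, 0.93 for Osmr, 0.92 for S100a6, 0.88 for Serpina3n, 0.67 for Vim, 0.21 for Lcn2, and -0.20 for Slc1a2. Timp1 and Vim had an r of 0.92, and the neighbors Slc1a2 and Cd44 an r of 0.20. These values are descriptions over arrays that share set means and references, and 5×FAD is the extreme point for most members. Among 14016 genes well above background on all arrays, the 5 with the highest r to Gfap were Gldn (0.97), Limch1 (0.96), S100a4 (0.95), Akr1b8 (0.95), and Gimap8 (0.94), and over the 9 arrays without the transgenic set their r was 0.40, 0.30, 0.46, 0.64, and 0.48. For Serpina3n they were Plod2, Rps9, Pi4k2b, Ttc34, and Myo1e (r of 0.94 to 0.96, and 0.72 to 0.90 without the transgenic arrays). For Slc1a2 they were Dnajc27, Ythdf3, Src, Ctdspl2, and Gtf3c4 (0.94 to 0.97, and 0.93 to 0.99 without them).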

How the data were processed

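RNA pooled from 3 animals was hybridized to 1 one-color Agilent array per model. The authors deposited spot intensities as the scanner software gave them, not normalized between arrays, with flags for outliers, saturation, and signal well above background, and a matrix of processed intensities, used only as an alternative because its columns are on different scales. The software version is not given in the sources used here.

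Log2 of the processed signal was averaged over the spots of a probe without outliers, quantile normalized over the 12 arrays (limma 3.58.1, R 4.3.3), and averaged over the probes of a gene. Accessions gave a symbol for 27502 of 39429 probes (GRCm38.p6 RefSeq table). Repeat spots of a probe had a median SD of 0.05 to 0.06 log2 units, and the software's error for member probes had a median of 10.0% of signal; neither covers differences between animals. Genes well above background on at least 1 array of a set were compared as log2 ratios to the average of the remaining arrays in the set, so ratios within a set sum to 0. A gene below background on all arrays of 1 side has only a bound, taken at the dimmest probe that was well above background. The age model used limma with Benjamini-Hochberg adjustment. Code was checked on simulated data. There the age model returned changes of 1 and 2 log2 units, set in 100 genes each, as medians of 1.00 and 1.98. It called 0% of the genes with either change.

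Named genes were the members, up to 4 called genes per list and array, and the 5 most correlated genes. The members, 9 context lists, and 12 marker lists were chosen with earlier results of these data known. Of the marker lists not described above, at most 1 of 6 oligodendrocyte and 1 of 7 endothelial genes was called in either direction on an array, at most 2 of 5 ependymal genes (0 in the transgenic set), and at most 1 of 8 cortical or hippocampal genes in either direction. Alternatives were another scaling, the deposited matrix, normexp correction (offset 50, on median signals), the study's filter of probes 1.4-fold over local background, applied there before quantile normalization, the brightest probe, normalization within sets, a 1.5-fold threshold, and each array left out.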

Additional observations from a re-analysis of the deposited data

How the results depend on the processing

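The 24 called results of single members kept their direction in 243 of 243 recomputations and stayed at least 2-fold in 221. With normexp 16 of 24 stayed at least 2-fold, without the 5×FAD array 2 of 6, and without the 17-month array 0 of 2. With normexp Timp1 went from 3.05 to 1.74 in 5×FAD, from 1.72 to 0.83 after 5 μM Aβ, and from -2.13 to -0.91 after 2.5 mg/kg streptozotocin, where the deposited matrix gave -0.95. The number of reactive genes called in 5×FAD was 6 to 8 over all settings and 7 with either other array left out. With an array left out, the number lower in MAPT was 2 to 7 and the number higher after 5 μM Aβ 2 to 3. Over all settings, the median of the reactive genes minus the mean of the resting genes was 1.06 to 1.65 in 5×FAD (1.36 in the main setting). It was -1.65 to -0.50 in MAPT, 0.47 to 0.68 after 5 μM Aβ, and -0.61 to -0.35 after 2.5 mg/kg streptozotocin. Aqp4 in 5×FAD was 0.81 with its brightest probe. The age model, with 2 residual degrees of freedom, called 0 genes under each alternative, which says nothing about stability. The 49 called results of context genes kept their direction in 519 of 519 recomputations, but 20 of 49 stayed at least 2-fold with normexp and 32 of 49 in the deposited matrix. The slide as a block was not run, because the files used here give no slide. No paired analysis was possible because each model is 1 array and all carry the same replicate number. Precision is limited by the number of arrays, and signals near background, as for Timp1 and Cd44, are the least certain.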
